A study of Mus musculus with 12 samples.

Results

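The members described here are the splicing factors of the SR protein and hnRNP families, as counted in 12 RNA sequencing libraries of sorted mouse CD4+ T cells. They are the rows of the count table whose symbol is SRSF with a number or starts with HNRNP, and whose counts sum to 10 or more over the 12 libraries. The rule found 37 members, 11 SRSF rows and 26 HNRNP rows, among 26485 gene rows. It left out 6 rows of such names, namely SRSF12 with 2 counts and 5 HNRNP rows at 0. Members held 164693 of 13673108 reads counted in genes, 61683 of them in SRSF rows and 103010 in HNRNP rows.

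SR proteins carry RNA recognition motifs and a tail of repeated arginine-serine pairs. They bind exonic enhancers, recruit the U1 and U2 particles to nearby splice sites and favour the inclusion of exons, and several of them also accompany the spliced mRNA to the cytoplasm. HnRNP proteins coat nascent transcripts through RNA recognition or KH domains and often act against SR proteins by masking splice sites. In T cells the balance between the families shapes activation-dependent exons, such as the variable exons of the phosphatase CD45, and many SR and hnRNP genes limit their own mRNA through exons that bring in premature stop codons.

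The 4 groups of 3 libraries were 4E heavy, OA heavy, 4E input and OA input, all from C57BL/6 mice immunised with an alum adjuvant and dosed by mouth daily for 7 days, either with the vehicle or with 25 mg/kg of 4EGI-1, which blocks the binding of the cap-binding factor eIF4E to eIF4G. Input is the RNA of the whole cells, and heavy is that of the heavy polysome part of a sucrose gradient, where mRNAs with many ribosomes sediment. Per the labels' protocols, both were polyA-selected. The labels leave the names 4E and OA unexplained; here 4E is taken to mean 4EGI-1 and OA to mean vehicle. No source states that each replicate is its own animal, and the p-values below therefore reflect library-to-library spread that may be technical. The 4E heavy replicate 3 library is marked ReSubmission. Of the genes listed as T cell markers, PTPRC (8791 counts), LCK (5355) and CD3E (935) had reads in all 12 libraries, whereas CD4 had 100 counts in 7 libraries and CD3D had 0. PTPRC, the gene of CD45, is not specific to T cells.

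Because 4EGI-1 acts on the factor that binds the mRNA cap, the first bases of the members' transcripts are shown for the members with a pyrimidine-rich start and for 3 members that the comparisons below turn on. Each line gives 15 bases before the transcript start in lower case and the first 15 transcribed bases in capitals, on the gene's own strand, from RefSeq on the build GRCm38.p6. The table listed 40 starts for 28 of the 37 members, matched by symbol with case ignored.
SRSF5 (chr12:80945484-80945513, + strand): gacgccaggacgtccCTTCCATTTTGTGCA
HNRNPA0 (chr13:58128542-58128571, - strand): cgcgccttcagcggcCTCTTTGTGTGGTGT
SRSF6 (chr2:162931493-162931522, + strand): gggcacttatagcgtAGGCCGGCGCGCGCG
SRSF7 (chr17:80207291-80207320, - strand): tccggcctcttccttGTAGTGCCGCCGGGA
HNRNPA3 (chr2:75659244-75659273, + strand): gtggtgactggccccGCCTCTTCCTCTCGG
The starts of SRSF5 and HNRNPA0 are a C followed by 4 bases that are each C or T, the letters with which mRNAs of the terminal oligopyrimidine class begin. That made 2 of 40 member starts (5.0%), beside 2.51% of all 32851 listed starts and 19.0% of 63 listed starts of ribosomal protein genes. The search covered the gene's strand at the listed start only, and a match describes these letters and not a regulatory site.

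Levels are given as read counts scaled to library size by the trimmed mean of M values (TMM), in the usual unit CPM, in the order of replicates 1, 2 and 3. They compare libraries and not genes, because transcript lengths were not taken into account. Libraries held 691449 to 1906657 gene reads. A count of 0 allows up to 3 counts, or 0.781 to 6.82 CPM by library, and such floors cover counting error only. Although the protocols name a polyA selection, small noncoding RNAs (by symbol) took 33.6% to 78.3% of the gene reads of input libraries. In heavy libraries they took 3.14% to 16.9%. Of the 37 members, 32 (10 SRSF and 22 HNRNP) had at least 10 counts in at least 3 libraries and were tested among 7465 genes. The other 5, SRSF8, HNRNPH2, HNRNPA1L2, HNRNPCL2 and HNRNPU-AS1, had 52, 20, 15, 11 and 11 counts in all and were at 0 in 2 to 10 libraries. For 7 members no mouse gene of that symbol was listed (SRSF8, HNRNPA1L2, HNRNPA3P1, HNRNPCL1, HNRNPCL2, HNRNPKP3 and HNRNPU-AS1). Those 7 rows held 595 reads, and the sources used here do not say which mouse sequence they count. HNRNPA1, in most tissues an abundant hnRNP protein with many near-identical gene copies, had only 200 counts and was at 0 in 4E input replicate 2, which allows up to 6.82 CPM. Whether reads that such copies share were split or dropped in counting was not tested.

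OA replicate 1 stood apart from the other OA libraries in both fractions, and it did so for the members too. In the heavy fraction HNRNPF stood 1.29 above the mean of OA replicates 2 and 3 on the log2 scale, and in input 1.39 above it. SRSF1 was below that mean, at -1.07 in heavy and -1.01 in input, and HNRNPA0 was at -1.05 in heavy and -1.15 in input. The sign was the same in both fractions for 29 of 32 members. Over these 32 points, which share 2 library pairs and their depth, Pearson's r was 0.659 between the fractions. Over all 7465 genes it was 0.669, but there the ratios came from log2 CPM with a small count added, less the mean of the logs. The values for members and for all genes are therefore not quite the same measure. Only HNRNPF (3.13% of the members) was above 1 in both fractions, against 4.77% of all genes on their own measure.

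**Figure D1:**
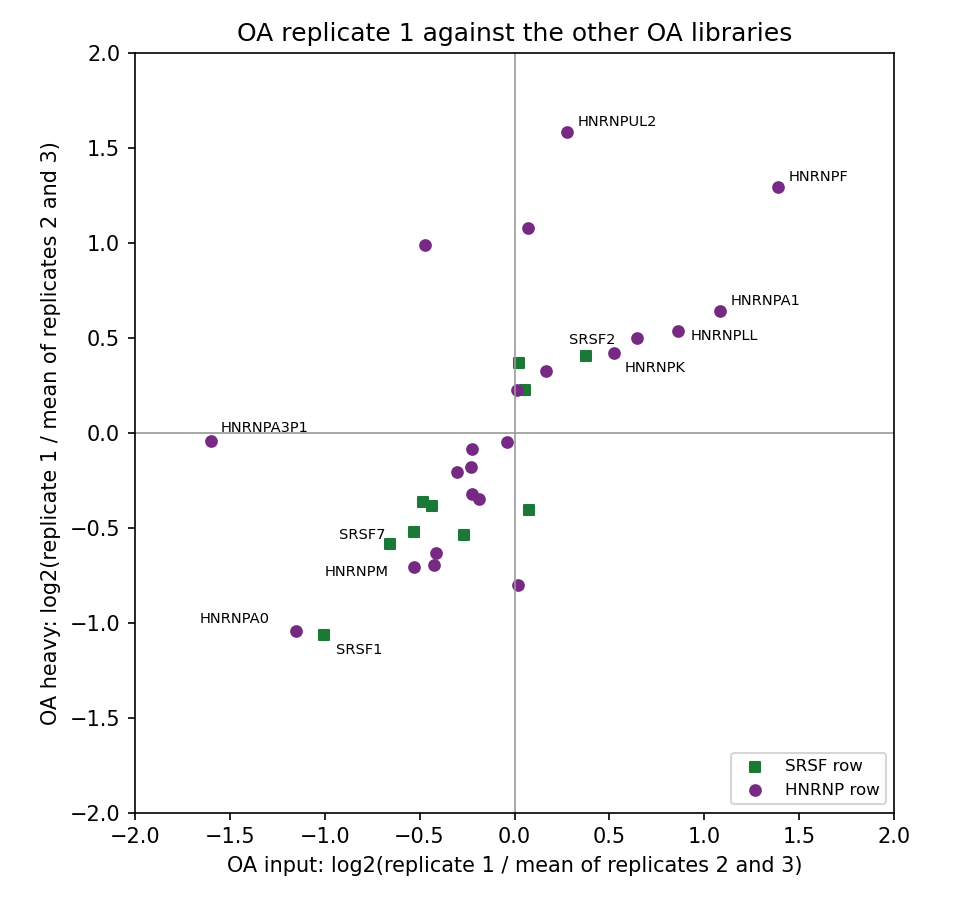
Deviation of OA replicate 1 from the mean of OA replicates 2 and 3, as log2 ratios, with input on the x axis, heavy on the y axis and 1 point for each of the 32 tested members. Most points lie along the diagonal, with HNRNPF at 1.39 and 1.29 at the upper right and SRSF1 and HNRNPA0 between -1.15 and -1.01 at the lower left.

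No SRSF or HNRNP row passed an adjusted p of 0.05 in any of the 5 contrasts (edgeR quasi-likelihood test with Benjamini-Hochberg adjustment over 7465 genes), and none did with DESeq2. The share of all genes called was 0% for 4E against OA in input, 0% in heavy, 0.938% for heavy against input in 4E, 0.683% in OA and 0% for the interaction, the heavy-minus-input change in 4E less that in OA. With small noncoding RNAs left out of the fit, 8 of 7400 genes were called between fractions in 4E and 5 in OA, none of them a member. The 0% between arms is that of the fit with all libraries. Without OA replicate 1 in both fractions, 26 genes were called in input and 9 in heavy, none of them a member. At an unadjusted p under 0.05 the members numbered 3 of 32 in input (9.38%, against 10.5% of all genes) and 4 of 32 in heavy (12.5%, against 8.21%). For heavy against input they numbered 3 of 32 in 4E (9.38%, against 5.59%) and 0 in OA (against 2.18%), and for the interaction 0 (against 2.13%). A p that misses the threshold does not show that levels were alike. The standard errors, where given, are derived from the test statistic and are a rough guide to the spread of a change.

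With small noncoding RNAs left out of the total, the summed shares of both families overlapped between arms in both fractions. Without small noncoding RNAs, SRSF rows held 0.812 ± 0.037% of gene reads in 4E heavy and 0.710 ± 0.112% in OA heavy (SD, n = 3 each), with ranges of 0.789 to 0.855% and 0.601 to 0.824%. In input they held 0.812 ± 0.034% in 4E and 0.804 ± 0.108% in OA. HNRNP rows held 1.22 ± 0.029% in 4E heavy, 1.26 ± 0.101% in OA heavy, 1.25 ± 0.031% in 4E input and 1.29 ± 0.046% in OA input. These group means lay within the OA spread in each fraction, and they were not tested. As a share of all gene reads, small noncoding RNAs included, HNRNP rows held 1.02 to 1.10% in 4E heavy and 1.12 to 1.20% in OA heavy, and 0.264 to 0.317% in 4E input and 0.328 to 0.822% in OA input, which did not overlap. On that total SRSF rows held 0.656 to 0.731% in 4E heavy and 0.582 to 0.725% in OA heavy, which overlapped, and 0.180 to 0.197% in 4E input and 0.222 to 0.452% in OA input, which did not. Small noncoding RNAs averaged 14.01% of gene reads in 4E heavy and 8.29% in OA heavy, and 76.6% in 4E input and 59.8% in OA input. The OA means were lowered by OA replicate 1, at 3.14% in heavy and 33.6% in input. It had the lowest such share and the most gene reads of each fraction. The other OA libraries had 9.698% and 12.03% in heavy, beside 10.6 to 16.9% in 4E. In input they had 74.9% and 70.98%, beside 75.1 to 78.3% in 4E. The part of small noncoding RNAs in the family shares was not tested.

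Among the SRSF rows, SRSF5, SRSF1 and SRSF7 had the most reads (24617, 8850 and 7847 counts in all). SRSF5, which promotes exon inclusion and is known as an early insulin-responsive SR protein, had 1758, 1695 and 1534 CPM in 4E heavy, against 1162, 1285 and 1703 in OA heavy. In input it had 1706, 1816 and 1843 CPM in 4E, against 1318, 1938 and 1742 in OA. The arms overlapped in both fractions, and OA replicate 1 was the lowest library in each. SRSF1, the founding member of the family and a regulator of splicing, export and translation, had 537, 707 and 807 CPM in 4E heavy, against 292, 555 and 670.1 in OA heavy. Its input values were 611, 796 and 775 CPM in 4E, against 368, 690.0 and 788 in OA. The low OA values are again those of replicate 1, and the difference in heavy, 0.44 (SE 0.30, adjusted p = 0.683), came to 0.14 (SE 0.18) without that replicate.

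**Figure D2:**
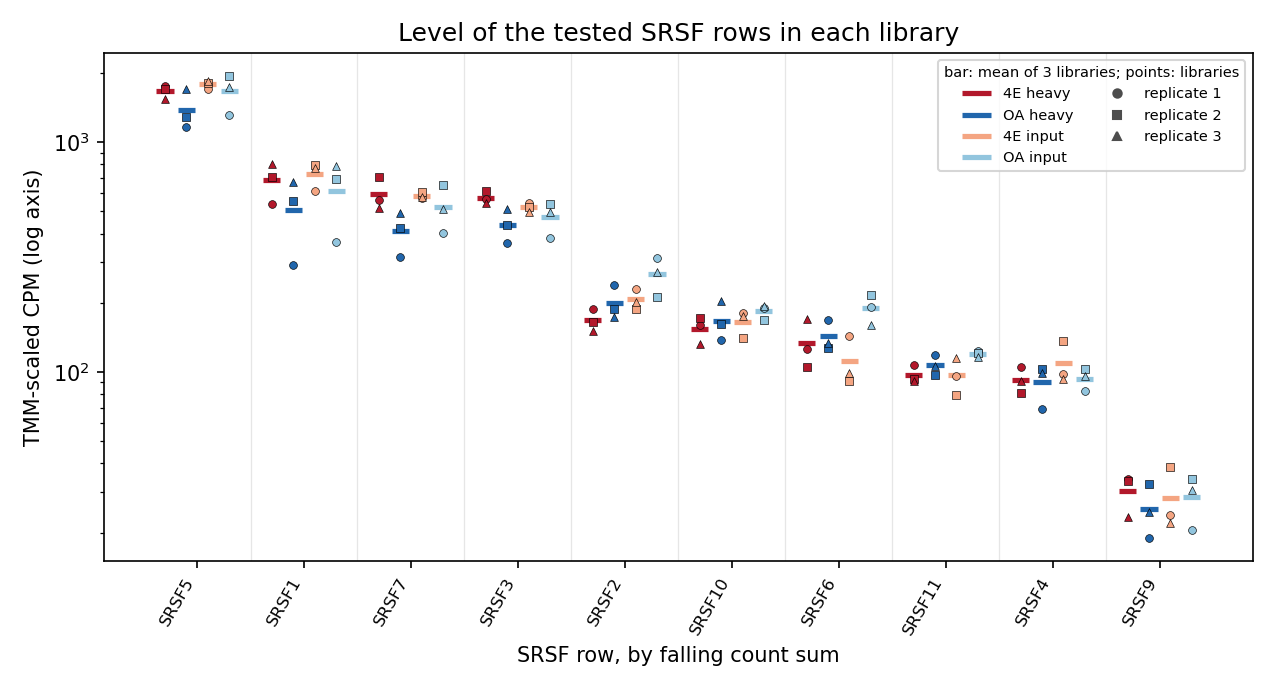
Level of the 10 tested SRSF rows in each of the 12 libraries (TMM-scaled CPM, log axis), with 1 symbol for each library and a bar for the mean of 3 in each group. OA replicate 1 (circles) lies lowest among the OA libraries for SRSF5, SRSF1, SRSF7 and SRSF3, and SRSF6 lies at 90.9 to 143 CPM in 4E input, below the 160.3 to 216 CPM of OA input.

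In input RNA, the comparison of 4E with OA asks whether the inhibitor arm differed in transcript levels, and SRSF6 had the smallest p among SRSF rows. SRSF6, an SR protein that regulates exon choice in transcripts such as that of tau, had 143, 90.9 and 99.3 CPM in 4E input, against 192, 216 and 160.3 in OA input. All 3 4E libraries lay below all 3 OA libraries, and the means were 111 ± 28.2 CPM in 4E input and 189.5 ± 28.1 CPM in OA input (SD, n = 3 each). The log2 change was -0.77 (SE 0.25, adjusted p = 0.353), and without OA replicate 1 it was -0.78 (SE 0.24, adjusted p = 0.266). SRSF6 was thus as far apart without the divergent library, though past the threshold in neither fit. SRSF2, which binds exonic enhancers and is recurrently mutated in myelodysplastic syndromes, had 230.3, 189 and 201 CPM in 4E input, against 315, 212 and 273 in OA input. SRSF2 values overlapped between arms, with a log2 change of -0.37 (SE 0.22, adjusted p = 0.567) and of -0.24 without OA replicate 1. SRSF11, an SR-related protein, had 95.6, 79.6 and 115 CPM in 4E input, against 123, 120.4 and 116 in OA input. The arms did not overlap, though the highest 4E and the lowest OA library were nearly equal (log2 change -0.31, SE 0.22, adjusted p = 0.648). Groups that do not overlap were found for 13.8% of all genes in this comparison, and for 2 of 10 SRSF rows (20.0%).

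The family's direction in input depended on 1 library. Of 10 SRSF rows, 6 were higher and 4 lower in 4E than in OA (47% of all genes were higher and 53% lower), and the median log2 change was 0.07, beside -0.05 over all genes. Without OA replicate 1 in both fractions, 1 was higher and 9 were lower, with a median of -0.10, beside 0.00 over all genes.

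In heavy polysome RNA the same comparison asks which transcripts differed in the fraction loaded with many ribosomes. SRSF7, which has a zinc knuckle beside its RNA recognition motif and helps to export mRNA, had 560.2, 703 and 518 CPM in 4E heavy, against 317, 421 and 492 in OA heavy. The lowest 4E library lay above the highest OA library, and the means were 594 ± 97.2 CPM in 4E heavy and 410.3 ± 87.9 CPM in OA heavy (SD, n = 3 each). Its log2 change was 0.54 (SE 0.22, adjusted p = 0.569), and 0.37 (SE 0.17, adjusted p = 0.860) without OA replicate 1, whose value was the lowest. In input SRSF7 had 569, 607 and 578 CPM in 4E, against 402, 649 and 512 in OA, and these overlapped. SRSF3, the smallest SR protein and a partner of the export receptor NXF1, had 563, 611 and 543 CPM in 4E heavy, against 363, 437 and 512 in OA heavy. These groups did not overlap either, with a log2 change of 0.39 (SE 0.20, adjusted p = 0.620) and of 0.26 (SE 0.16) without OA replicate 1. In input SRSF3 had 541, 523 and 495 CPM in 4E, against 382, 537 and 495 in OA, an overlap.

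Across the SRSF family in heavy, 6 rows were higher and 4 lower in 4E (49.8% of all genes were higher and 50.2% lower), with a median log2 change of 0.15, beside -0.00 over all genes, and with 6 higher, 4 lower and a median of 0.05 without OA replicate 1. SRSF5, SRSF1, SRSF7, SRSF3 and SRSF9 had changes of 0.27, 0.44, 0.54, 0.39 and 0.28, and without OA replicate 1 of 0.14, 0.14, 0.37, 0.26 and 0.08. SRSF2, SRSF10, which represses splicing when dephosphorylated, SRSF6 and SRSF11 had -0.24, -0.11, -0.11 and -0.14, and without that replicate -0.11, -0.25, 0.01 and -0.07. SRSF4, the SR protein with the longest arginine-serine tail, was at 0.04, and at -0.14 without it, so SRSF6 and SRSF4 turned sign. The family did not move one way in either fit. Groups without overlap made up 2 of 10 SRSF rows (20.0%), beside 17.1% of all genes.

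Heavy against input within an arm compares a transcript's share of heavy polysome RNA with its share of all RNA, relative to the other genes. In 4E, SRSF2 had 189, 165 and 151 CPM in heavy, against 230.3, 189 and 201 in input, and in OA it had 238, 187 and 173 CPM in heavy, against 315, 212 and 273 in input. The 4E fractions did not overlap, though the highest heavy and the lowest input library were nearly equal, while the OA fractions overlapped. The log2 change was -0.29 (SE 0.22, adjusted p = 0.962) in 4E and -0.42 (SE 0.21, adjusted p = 0.9999) in OA. SRSF6 had 126, 105 and 169 CPM in 4E heavy, against 143, 90.9 and 99.3 in 4E input, and 168, 127 and 134 CPM in OA heavy, against 192, 216 and 160.3 in OA input. It was the SRSF row with the largest gap between arms, at 0.26 (SE 0.25) in 4E and -0.40 (SE 0.24) in OA, and the difference of these differences was 0.66 (SE 0.34, adjusted p = 0.9996), or 0.79 (SE 0.33) without OA replicate 1. The 4E value of SRSF6 hung on single libraries, at 0.056 without 4E heavy replicate 3 and 0.48 without 4E input replicate 1. Since its input and heavy values enter this difference, it is not independent of the input comparison above. SRSF4 had 105, 80.8 and 91.4 CPM in 4E heavy, against 97.8, 136 and 92.7 in 4E input, which overlapped, and the log2 change was -0.24 (SE 0.25, adjusted p = 0.971). SRSF7 was at 0.02 in 4E and -0.34 (SE 0.22) in OA, and SRSF3 at 0.14 in 4E and -0.10 in OA, with differences between the arms of 0.36 (SE 0.32) for SRSF7 and 0.24 (SE 0.28) for SRSF3. Neither passed the threshold. SRSF2 and SRSF3 were the 2 of 10 SRSF rows (20.0%) whose 4E fractions did not overlap, SRSF2 lower and SRSF3 higher in heavy, beside 13.7% of all genes.

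In OA all 10 tested SRSF rows were lower in heavy than in input, with log2 changes of -0.42 to -0.05 and a median of -0.21, beside 49.3% of all genes lower, 50.7% higher and a median of 0.01. In 4E, 5 were lower and 5 higher, with a median of -0.04, beside 46% of all genes lower, 54% higher and a median of 0.04. Without OA replicate 1 the OA count was 8 lower and 2 higher, with a median of -0.25, and leaving out OA heavy replicate 1 or OA input replicate 1 alone gave medians of -0.088 and -0.33. The interaction was above 0 for 9 of 10 SRSF rows (54.2% of all genes were above and 45.8% below 0), with a median of 0.18, and for 8 of 10 with a median of 0.21 without OA replicate 1. Leaving out OA input replicate 1 alone gave a median of 0.35, and leaving out OA heavy replicate 1 alone gave 0.092. No row passed the test in either arm or for the interaction, and the rows share their libraries and scaling, so these counts describe the libraries at hand. With the replicate number as a block in OA, where the number is taken to pair the fractions, 90 genes were called in place of 51, and none of them was a member.

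**Figure D3:**
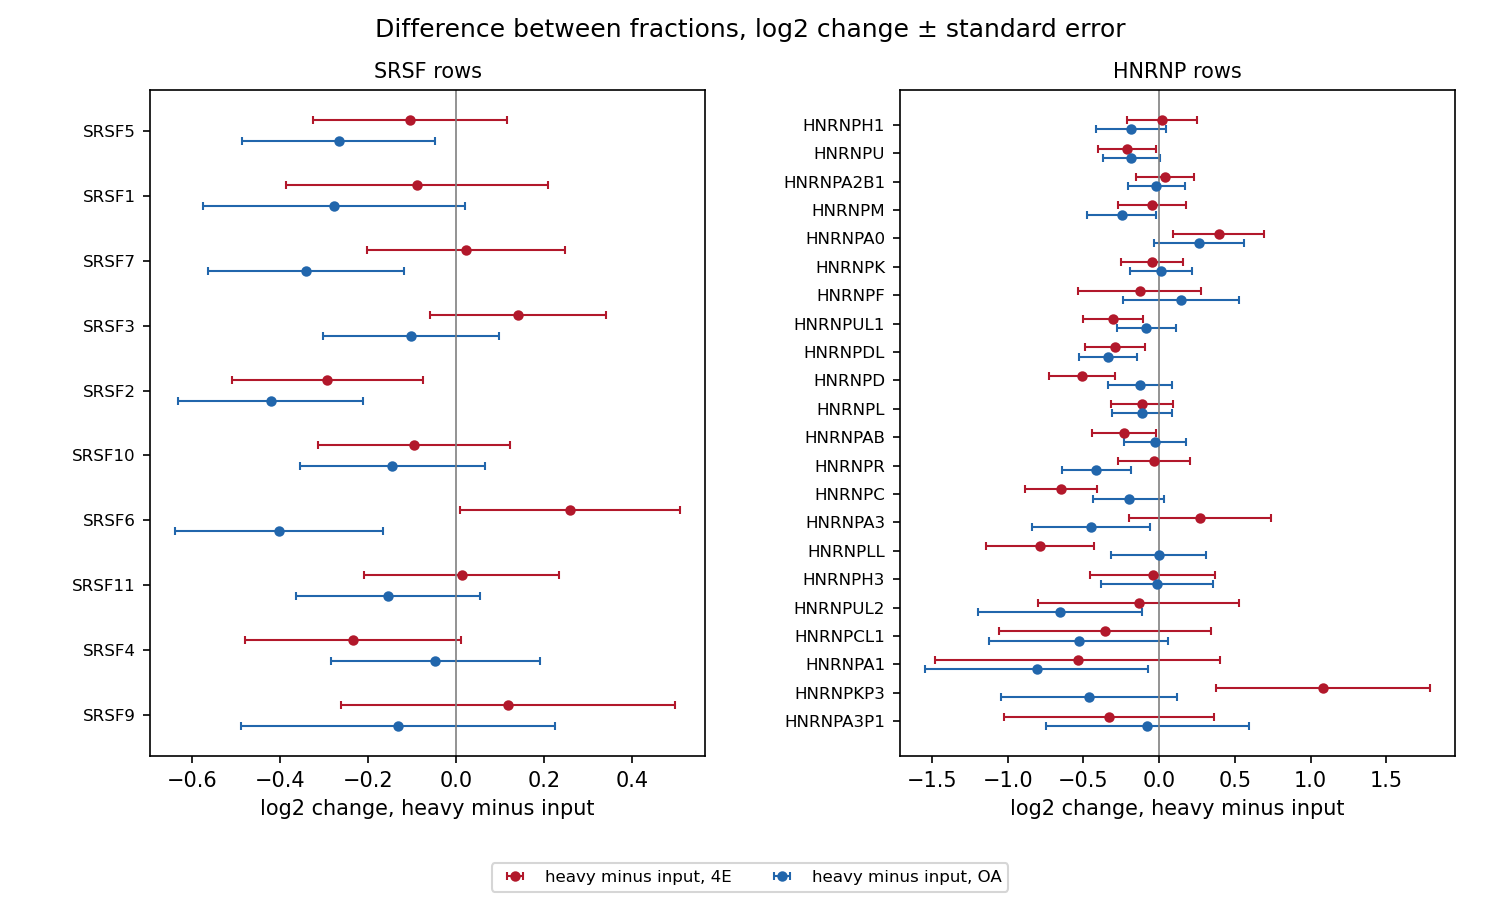
Log2 change of heavy minus input for each tested row with its standard error, for 4E and OA, with SRSF rows on the left and HNRNP rows on the right in order of falling count sum. All 10 SRSF points of OA lie below 0, from -0.42 to -0.05, while those of 4E lie on both sides, and HNRNPC, HNRNPD and HNRNPLL lie at -0.79 to -0.51 in 4E.

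Among the HNRNP rows, HNRNPH1, HNRNPU and HNRNPA2B1 had the most reads (18005, 15281 and 13381 counts in all). HNRNPH1, which binds runs of G beside splice sites, had 1254, 1301 and 1439 CPM in 4E heavy, against 719, 1004 and 1325 in OA heavy, and 1310.3, 1328 and 1307 CPM in 4E input, against 945, 1142 and 1390.2 in OA input. Both fractions overlapped between arms, with OA replicate 1 the lowest. HNRNPU, which binds nuclear RNA and chromatin as scaffold attachment factor A, had 924, 901 and 875 CPM in 4E heavy, against 833, 892 and 994 in OA heavy, and 1104, 1066 and 958 CPM in 4E input, against 923, 1058 and 1107 in OA input. Its differences between arms were among the smallest, at -0.01 (SE 0.19) in heavy and 0.02 (SE 0.19) in input. HNRNPA2B1, which reads sequence signals for RNA transport, had 817, 770.3 and 798 CPM in 4E heavy, against 731, 859.7 and 966 in OA heavy, and 769, 748 and 804 CPM in 4E input, against 777, 969.9 and 844 in OA input. These overlapped as well, with changes of -0.10 (SE 0.19) in heavy and -0.16 (SE 0.19) in input.

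**Figure D4:**
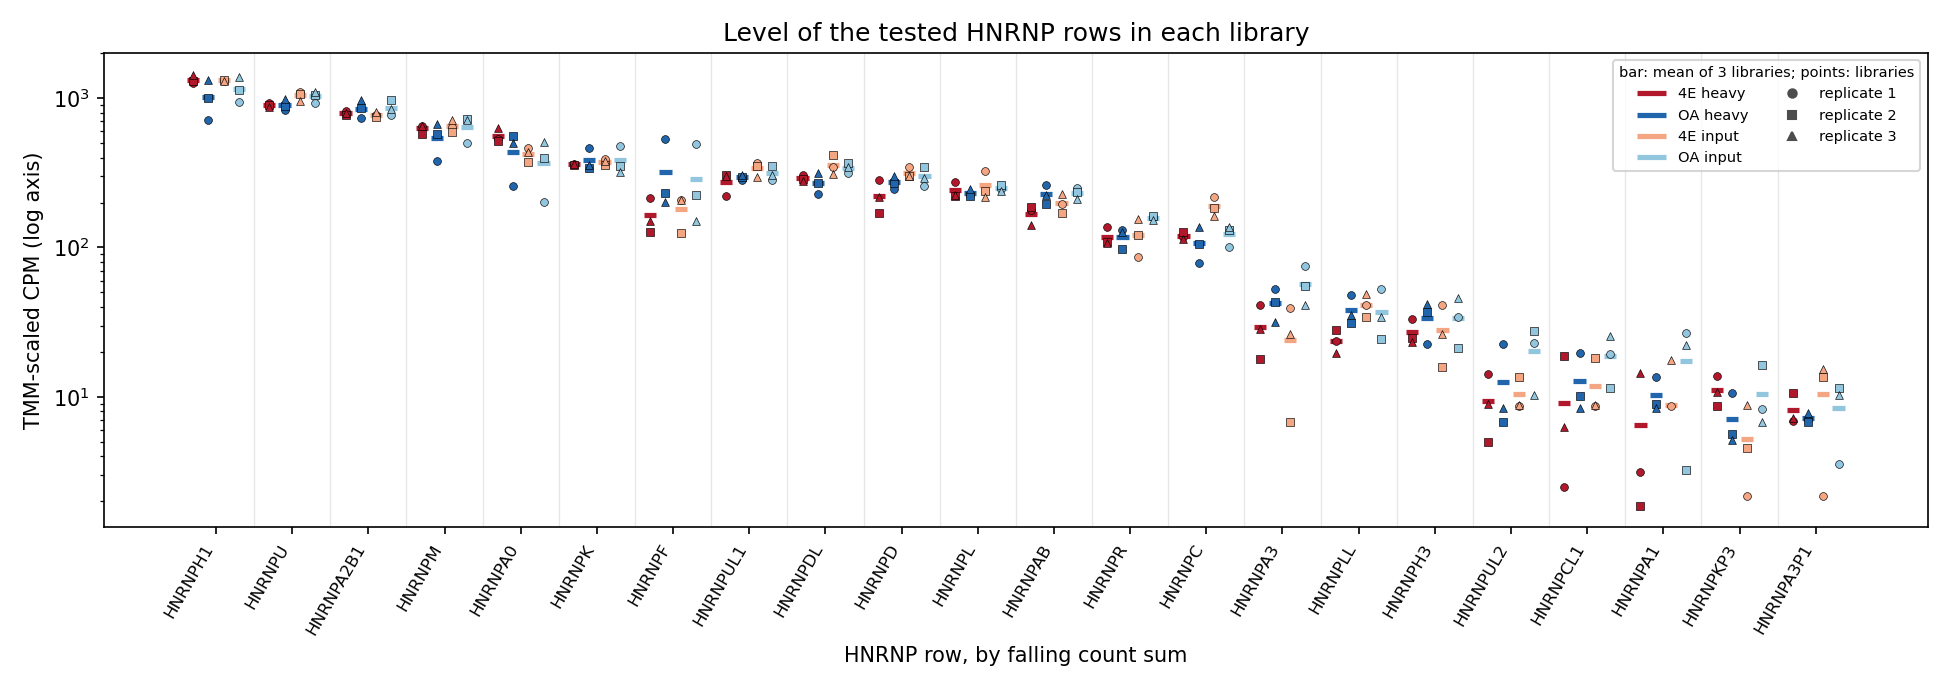
Level of the 22 tested HNRNP rows in each of the 12 libraries (TMM-scaled CPM, log axis), with 1 symbol for each library and a bar for the mean of 3 in each group. HNRNPA1 was at 0 in 1 library, which the log axis cannot show, and for HNRNPF the OA replicate 1 libraries (circles, 532 CPM in heavy and 489.7 CPM in input) lie far above the others.

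In input, HNRNPA3, a relative of HNRNPA1 and HNRNPA2B1 that binds transport signals in mRNA, had 39.1, 6.82 and 26.5 CPM in 4E, against 75.3, 55.3 and 40.9 in OA. The arms did not overlap, but the lowest 4E value rests on 3 counts, and its means were 24.1 ± 16.3 CPM in 4E input and 57.2 ± 17.2 CPM in OA input (SD, n = 3 each). The log2 change was -1.27 (SE 0.46, adjusted p = 0.383), and -1.002 (SE 0.47, adjusted p = 0.567) without OA replicate 1, and -0.83 without 4E input replicate 2, the library with 3 counts. HNRNPC, which binds uridine tracts and keeps splicing factors off them, had 217, 184 and 163 CPM in 4E input, against 101, 132 and 138 in OA input. All 4E libraries lay above all OA libraries, with means of 188 ± 27.2 CPM in 4E input and 124 ± 19.6 CPM in OA input (SD, n = 3 each). Its log2 change was 0.62 (SE 0.24, adjusted p = 0.398), and 0.46 (SE 0.22, adjusted p = 0.569) without OA replicate 1. HNRNPF, which like HNRNPH1 binds G runs, had 206, 125 and 208 CPM in 4E input, against 489.7, 225 and 150.1 in OA input. The arms overlapped and OA replicate 1 was the high value, and the change of -0.71 (SE 0.40) came to -0.08 (SE 0.25) without it. Of 22 HNRNP rows 11 were higher and 11 lower in 4E input, with a median of -0.01, beside -0.05 over all genes, a difference of 0.03, but of -0.02 when scaled by library sizes alone, and 2 of 22 (9.09%) did not overlap, beside 13.8% of all genes. Without OA replicate 1, 6 were higher and 16 lower, with a median of -0.09.

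In heavy, HNRNPF had 216, 126 and 150.5 CPM in 4E, against 532, 232 and 202 in OA. The arms overlapped, since the highest 4E library lay above the lowest OA library. The log2 change was -0.98 (SE 0.39, adjusted p = 0.569), and -0.42 (SE 0.22, adjusted p = 0.913) without OA replicate 1. With no filter on low counts the adjusted p of HNRNPF was 0.0152 at a change of -1.01, with OA replicate 1 in the fit. That fit called 50 of 13944 genes in heavy, against 0 of 7465 in the main fit. HNRNPLL, which in activated T cells directs the skipping of the variable exons of CD45, had 23.7, 27.98 and 19.7 CPM in 4E heavy, against 48.4, 31.4 and 35.4 in OA heavy. The groups did not overlap, with means of 23.8 ± 4.14 CPM in 4E heavy and 38.4 ± 8.90 CPM in OA heavy (SD, n = 3 each), and the log2 change was -0.69 (SE 0.32, adjusted p = 0.594), or -0.49 (SE 0.35) without OA replicate 1. In input HNRNPLL had 41.3, 34.1 and 48.6 CPM in 4E, against 53.1, 24.4 and 34.1 in OA, which overlapped. HNRNPAB, a protein of the group that binds A- and U-rich RNA, had 179, 186 and 142 CPM in 4E heavy, against 262, 195 and 224 in OA heavy. These did not overlap either, at a log2 change of -0.43 (SE 0.20, adjusted p = 0.604) and of -0.32 (SE 0.19) without OA replicate 1. Of 22 HNRNP rows 8 were higher and 14 lower in 4E heavy (50.2% of all genes were lower), with a median of -0.10, or -0.02 without OA replicate 1, and 2 of 22 (9.09%) did not overlap, beside 17.1% of all genes.

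**Figure D5:**
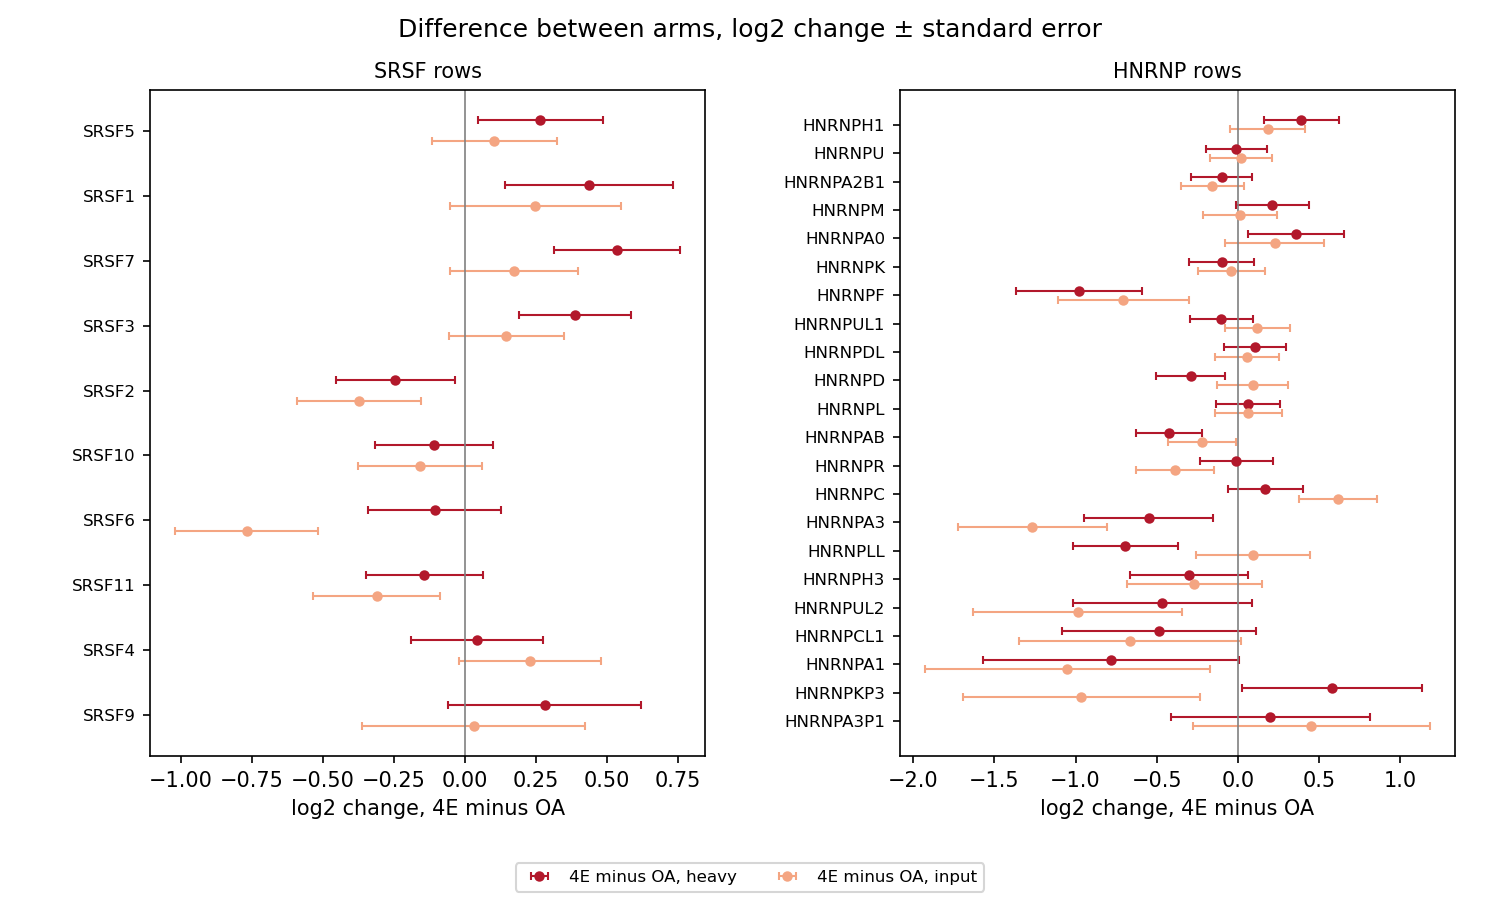
Log2 change of 4E minus OA for each tested row with its standard error, in heavy and in input, with SRSF rows on the left and HNRNP rows on the right in order of falling count sum. SRSF7 in heavy lies at 0.54, SRSF6 in input at -0.77, HNRNPA3 in input at -1.27 and HNRNPC in input at 0.62, and rows with few counts at the foot of the HNRNP panel have the widest errors.

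For heavy against input, HNRNPC had 118, 127 and 115 CPM in 4E heavy, against 217, 184 and 163 in 4E input, and 78.4, 105 and 138 CPM in OA heavy, against 101, 132 and 138 in OA input. The 4E fractions did not overlap and the OA fractions did. Its log2 change was -0.65 (SE 0.24, adjusted p = 0.609) in 4E and -0.20 (SE 0.23) in OA, and the interaction was -0.45 (SE 0.33, adjusted p = 0.9996). HNRNPD, known as AUF1 and a regulator of the decay of mRNAs with AU-rich elements, had 281, 170.3 and 217 CPM in 4E heavy, against 348, 302 and 302 in 4E input. These did not overlap, at -0.51 (SE 0.22, adjusted p = 0.799), and in OA HNRNPD had 248, 271 and 300.2 CPM in heavy, against 259, 348 and 290.0 in input, at -0.13 (SE 0.21). HNRNPLL, with the values above, was at -0.79 (SE 0.36, adjusted p = 0.858) in 4E and at -0.00 (SE 0.31) in OA, with an interaction of -0.79 (SE 0.48, adjusted p = 0.9996), or -0.98 (SE 0.55) without OA replicate 1. The 4E fractions of HNRNPU, HNRNPDL and HNRNPA0 also did not overlap, with heavy lower for HNRNPU (-0.21) and HNRNPDL (-0.29) and higher for HNRNPA0 (0.39). That makes 6 of 22 HNRNP rows (27.3%), beside 13.7% of all genes.

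In OA, HNRNPR, a relative of SYNCRIP that binds mRNA of neurons and other cells, had 131, 97.6 and 126 CPM in heavy, against 159, 163 and 152 in input. All heavy libraries lay below all input libraries, at a log2 change of -0.41 (SE 0.23, adjusted p = 0.9999), whereas in 4E it had 138, 108 and 107 CPM in heavy, against 86.9, 120.5 and 155 in input. HNRNPDL, a relative of HNRNPD, had 229, 269.7 and 314 CPM in OA heavy, against 313, 366 and 348 in OA input, and 306, 289.7 and 277 CPM in 4E heavy, against 343, 416 and 309 in 4E input. The OA fractions of HNRNPDL just overlapped, and its change was -0.34 (SE 0.19) in OA and -0.29 (SE 0.20) in 4E, close to each other. HNRNPUL2, a relative of HNRNPU, had 22.7, 6.73 and 8.38 CPM in OA heavy, against 23.0, 27.7 and 10.2 in OA input, which overlapped, and its change of -0.66 (SE 0.54) came to -1.33 (SE 0.74) without OA replicate 1. HNRNPKP3, a row whose symbol is that of a human pseudogene of HNRNPK, had 13.7, 8.70 and 10.7 CPM in 4E heavy, against 2.17, 4.55 and 8.83 in 4E input, and 10.7, 5.61 and 5.15 CPM in OA heavy, against 8.32, 16.3 and 6.82 in OA input. These are a few counts in each input library of 4E, and the interaction of 1.55 had an SE of 0.92 (adjusted p = 0.9996), and was 2.16 (SE 1.15) without OA replicate 1.

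Over the HNRNP family 17 of 22 rows were lower in heavy than in input in 4E (46% of all genes), with a median log2 change of -0.13, and 19 of 22 in OA (49.3% of all genes), with a median of -0.16. Without OA replicate 1 these counts were 17 in 4E and 16 in OA, with medians of -0.14 and -0.16. In OA 1 of 22 rows (4.55%) did not overlap between fractions, beside 7.56% of all genes. The interaction was above 0 for 11 rows and below 0 for 11, with a median of 0.02. Scaling by library sizes alone, without TMM factors, moved the median of all genes to 1.97 in 4E and 1.24 in OA, and relative to it the medians were -0.18 for HNRNP rows and -0.07 for SRSF rows in 4E, and -0.11 and -0.15 in OA.

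Some other HNRNP rows had changes between the arms above their standard errors. In input HNRNPR was at -0.39 (SE 0.24), HNRNPUL2 at -0.99 (SE 0.64) and HNRNPKP3 at -0.96 (SE 0.73). In heavy HNRNPD was at -0.29 (SE 0.21) and HNRNPH1 at 0.39 (SE 0.23). Without OA replicate 1 these were -0.40, -0.89, -1.16, -0.37 and 0.18 in the same order. The rows that follow had changes below or near their standard errors in the fit with all libraries. HNRNPK, a KH-domain protein that binds C-rich RNA, was at -0.10 (SE 0.20) in heavy and -0.04 (SE 0.21) in input. HNRNPL, which binds CA repeats and also acts on CD45 exons, was at 0.06 (SE 0.20) and 0.06 (SE 0.20) in the same order. HNRNPM, HNRNPUL1 and HNRNPH3 lay between -0.30 and 0.21 in heavy and between -0.27 and 0.12 in input, and without OA replicate 1 between -0.55 and -0.00 in heavy and between -0.27 and 0.03 in input. HNRNPA0, which binds AU-rich elements, was at 0.36 (SE 0.30) in heavy and 0.23 (SE 0.30) in input, and at 0.06 and -0.09 without OA replicate 1. HNRNPA1, HNRNPCL1 and HNRNPA3P1 had at most 234 counts each, and their standard errors ranged from 0.60 to 0.88 in these contrasts.

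Sums over marker genes of other cell types and of dividing cells differed between the arms in part. Proliferation genes, 25 of 25 of them with reads, summed to 432 to 491 CPM in 4E heavy and 691 to 813 CPM in OA heavy, and to 361 to 541 CPM in 4E input and 694 to 823 CPM in OA input, so the arms did not overlap. Stromal and endothelial markers, of which 9 of 11 had reads and DCN and LUM were at 0, summed to 30.5 to 62.7 CPM in 4E heavy and 81.2 to 530.3 CPM in OA heavy, and to 43.2 to 60.8 CPM in 4E input and 91.9 to 583 CPM in OA input. Myeloid markers (9 of 10 with reads, S100A8 at 0) summed to 13.1 to 29.6 CPM in 4E heavy and 45.4 to 96.1 CPM in OA heavy, and to 19.6 to 55.2 CPM in 4E input and 30.7 to 63.5 CPM in OA input, which overlapped. B cell markers (9 of 10 with reads, FCER2 at 0) summed to 122 to 376 CPM in 4E heavy and 108 to 316 CPM in OA heavy, and overlapped in input as well. The sums of T cell markers (11 of 12 with reads, PTPRC among them) overlapped, at 1628 to 1842 CPM in 4E heavy and 1340 to 1717 CPM in OA heavy, and at 1484 to 1688 CPM in 4E input and 1247 to 1673 CPM in OA input. Taken singly, 4 of 10 tested T cell markers did not overlap in heavy, all higher in 4E (40%, against 17.1% of all genes). In input 2 of 10 did not overlap, 1 higher and 1 lower in 4E (20%, against 13.8% of all genes). The part of these differences in the SRSF and HNRNP values was not tested. In such bulk samples fewer cells of a type and less RNA per cell cannot be told apart.

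Other genes of the splicing machinery were counted in lists. No gene of these lists passed the test in any contrast. Of 27 SR-related proteins, such as the SR-like regulators TRA2A and TRA2B and the spliceosome scaffolds SRRM1 and SRRM2, 23 were higher in 4E input (47% of all genes) and 22 in 4E heavy (49.8%), with medians of 0.18 and 0.27. Without OA replicate 1, 12 of 27 were higher in input and 18 in heavy, with medians of -0.01 and 0.13. Between fractions, 22 of 27 were lower in heavy in 4E and 23 in OA, and 23 were lower in each arm without OA replicate 1. When scaled by library sizes alone, 23 lay below the median of all genes in 4E and 18 in OA. TRA2B, which works with SRSF proteins on exonic enhancers, was at -0.50 in input (SE 0.22, adjusted p = 0.444). Of 12 SR protein kinases, phosphatases and the importer TNPO3, 8 were higher in 4E input and 8 in 4E heavy, and 8 were lower in heavy than in input in each arm, while without OA replicate 1, 6 were higher in 4E input and 7 in 4E heavy, with CLK2, a kinase that releases SR proteins from speckles, at 0.72 in heavy (SE 0.32, adjusted p = 0.574). Of 69 core spliceosome proteins, 38 were higher in 4E input and 41 in 4E heavy, led by PRPF6 at 1.05 (SE 0.25, adjusted p = 0.320) and PRPF39 at -0.80 (SE 0.22, adjusted p = 0.353) in input. Of 11 hnRNP proteins under other symbols, 5 were higher in 4E input and 4 in 4E heavy, and of 34 other splicing regulators 18 and 14. Leaving out OA replicate 1, these counts were 6 and 6 for the hnRNP proteins under other symbols and 13 and 12 for the regulators, and 39 and 39 for the core spliceosome. Of those 34 regulators, 23 were lower in heavy than in input in 4E, with a median of -0.07, and 29 in OA, with a median of -0.15, while the core spliceosome had medians of -0.03 in 4E and 0.03 in OA. Of 9 nonsense-mediated decay factors, which degrade the premature-stop isoforms of SR genes, 2 were higher in 4E input and 4 in 4E heavy, with SMG5 at -0.78 (SE 0.30, adjusted p = 0.392) in input.

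In the authors' deposited table, which compares the arms named OAE and OA, all 37 members were present and 0 had an adjusted p under 0.05, against 10 of 11228 rows. The authors' deposited table puts 2 members (5.41%, against 12.4% of all rows) in a regulation class, HNRNPA3 in transcription alone and HNRNPA1L2 in translation alone. For HNRNPA3 the authors' deposited table gives a log2 fold change of -1.49 in transcription (adjusted p = 0.567), and for SRSF6 -0.83 (adjusted p = 0.555). HNRNPA1L2 had 15 counts in all and was at 0 in 8 of 12 libraries, and it was not tested here.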

How the data were processed

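RNA of 12 libraries (4 groups of 3) was measured by polyA-selected stranded RNA sequencing, per the labels' protocols. The submitters' processing notes name Bowtie and the build mm9, and no source used here names the counting tool or the annotation. The authors deposited counts per gene under human-style symbols. The deposit's name calls them normalised, but they are whole numbers and were taken here as raw counts. The authors' deposited table of comparisons holds log2 fold changes and p-values, which were copied and not recomputed. Reads in no gene (16.4% to 31.4% of a library) and ambiguous reads stayed out of library sizes and tests, and 691449 to 1906657 gene reads per library remained.

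The 7465 genes that reached 10 counts in 3 or more libraries were fitted in R 4.3.3 with edgeR 4.0.16 (TMM factors, quasi-likelihood test, 1 mean for each of 4 groups), with 5 contrasts and Benjamini-Hochberg adjustment over all 7465 genes at 0.05. The standard error of a log2 change is its size divided by the square root of the F statistic. The procedure was tested on simulated counts with known changes. Those counts had the same dispersion for all genes and no divergent library, so they do not show how the test behaves with OA replicate 1. Members, gene lists and tests were chosen with earlier results of these data known. Values in every library are given for the 3 rows of each family with the most counts and the 3 with the smallest p in each contrast (any called row would join them), and of the other lists the 2 genes with the smallest p in a list and contrast could be named.

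Same-numbered libraries deviated together between the fractions of OA (correlations over genes of 0.669, 0.138 and 0.312), where the number is taken as a pairing. In the other comparisons the correlations were 0.015 to 0.279, with at least 1 pair at or under 0.1 in each, and the number is not taken as one. The labels use the same numbers in both fractions of an arm and do not say what a number stands for. Alternatives were DESeq2 1.42.0, library sizes without TMM factors, other filters, small noncoding RNAs left out, replicate blocks and each library left out. No protein sequences were used here. A further marker list is not reported here.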

Additional observations from a re-analysis of the deposited data

How the results depend on the processing

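Members called numbered 0 under DESeq2, the filter of 50 counts, the fit without small noncoding RNAs and every fit that left out 1 library. Without TMM factors the scale itself shifted. The median log2 change of all genes became -0.93 for 4E against OA in input, -0.18 in heavy, 1.97 for heavy against input in 4E, 1.24 in OA and 0.73 for the interaction. The SRSF medians then were -0.69, -0.014, 1.90, 1.09 and 0.84 in the same order, and the HNRNP medians -0.94, -0.28, 1.80, 1.13 and 0.68. On that scale 10 SRSF and 18 HNRNP rows were called for heavy against input in 4E, and 8 SRSF and 12 HNRNP rows in OA, beside 6035 and 3054 of all genes. The sign turned for HNRNPC (-0.16 in input, 1.29 for the 4E fractions, 0.17 for the interaction), for HNRNPD (1.43), HNRNPLL (1.14), SRSF2 (1.64) and SRSF4 (1.71) between the 4E fractions, for HNRNPDL (0.96), HNRNPR (0.84), HNRNPUL2 (0.57), SRSF2 (0.76), SRSF6 (0.86) and SRSF7 (1.03) between the OA fractions, and for HNRNPLL (0.041) in the interaction. With no filter the SRSF median in heavy was 0.020, and 1 HNRNP row (HNRNPF) was called in heavy; all-gene calls were 113, 50, 92, 80 and 4 in the same order, and the cause was not tested. With the replicate block by arm and number, 2 HNRNP rows were called between the 4E fractions, HNRNPC (-0.65, adjusted p = 0.0360) and HNRNPD (-0.53, adjusted p = 0.0497), although the numbers did not pair these fractions; all-gene calls were 109 in 4E, 90 in OA and 10 for the interaction. With the replicate block by number alone, all-gene calls were 71, 27, 80, 66 and 0, none of them a member. Libraries that correlated best with their own number were 6 of 6 between arms in input, 4 in heavy, 5 between the 4E fractions and 4 between the OA fractions, a hint from the data and not the design. Without OA replicate 1 in both fractions the SRSF median in input was -0.10, and all-gene calls were 26 in input and 9 in heavy. Leaving out 1 library at a time gave SRSF medians of -0.10 (without OA input replicate 1) to 0.21 in input, 0.06 to 0.19 in heavy, -0.12 to 0.03 between the 4E fractions, -0.33 to -0.088 between the OA fractions and 0.092 to 0.35 for the interaction. HNRNP medians were -0.10 to 0.00, -0.11 to -0.01, -0.20 to -0.05, -0.25 to -0.13 and -0.03 to 0.10 in the same order. All-gene calls were 8 in 4E and 5 in OA between fractions without small noncoding RNAs, against 70 and 51 with them. Rows under about 250 counts have wide errors, and 3 libraries a group limit every test.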
